A study of Mus musculus with 3 samples.

Results

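The genes that build tight junctions, gap junctions and the apical polarity complexes were followed in mouse liver that expressed human YAP. Members were taken by symbol: the numbered claudins (Cldn) and connexins (Gja, Gjb, Gjc and Gjd), the zonula occludens genes (Tjp), Marveld1, Marveld2 and Marveld3, the Pard3 and Pard6 genes, and Ocln, F11r, Cgn, Cgnl1, Crb3, Mpp5, Inadl, Scrib, Llgl1, Llgl2, Dlg1, Prkci, Prkcz, Amot, Amotl1 and Mark2. This gave 69 genes with 87 probes, out of 20284 genes named on the array. Inadl is listed under its current symbol Patj.

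The arrays were 3 one-colour Agilent mouse arrays, 1 for each of YAP (WT), YAP (1SA) and YAP (2SA), hybridised with total RNA of C57BL/6J liver at day 2. YAP is the transcriptional coactivator that the Hippo pathway holds back by phosphorylation, and the SA mutants exchange serines for alanine so that YAP stays active. All 3 groups carried the human YAP transgene, delivered as plasmid into the tail vein by hydrodynamic injection. Per the study, the plasmid used a hepatocyte-specific albumin promoter with an alpha-fetoprotein enhancer, only part of the hepatocytes take it up, the injection itself injures the liver, and mainly male mice aged 8 weeks were used. The labels give no age for these animals and do not say if RNA was pooled, and a number 2 stands in the title of the YAP (WT) liver. No uninjected liver is analysed here, so every difference is between forms of YAP. With 1 array per group no difference has a replicate check, no test between groups was run, and a difference between groups cannot be told apart from one between livers.

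Tight junctions seal the bile canaliculus, the channel between neighbouring hepatocytes into which bile is secreted. Claudins, occludin and some other tetraspan proteins form the seal in the membrane. The zonula occludens proteins and cingulin tie it to actin from the cytoplasmic side. Gap junctions are channels of connexins that pass ions and small molecules between cells. The Par, Crumbs and Scribble complexes set the border between the apical and the basolateral membrane, and several of their members, like the angiomotins, can bind YAP or its regulators at the junction.

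Values are the deposited spot intensities, which have no unit. Each difference is a log2 difference after every array was divided by its own 75th percentile of intensity (290.8 in WT, 275.7 in 1SA and 319.5 in 2SA), so that 1 on this scale is a 2-fold difference. Measured means that 50% or more of a probe's spots on that array were well above background. Probes measured on each array numbered 28972 to 30784, and 13626 genes were measured on all 3. The scanner software's own error of a member's intensity was 10.03% in the median. Probes spotted repeatedly gave an SD of 0.10 for a log2 difference, and 2 such SDs, 0.21, is used below as the limit for error between spots. Below an intensity of 50 this SD was 0.27 to 0.32, so the limit does not hold for members that dim. The 9 that stayed under 50 on all arrays were Amotl1, Cgnl1, Cldn9, Cldn15, Cldn23, Gja1, Gja10, Gjc3 and Marveld3. Gja5 was under 50 in WT and 1SA (43.9 and 22.7), so the limit does not hold for its differences either. In the median the software's error is larger than the error between spots, so a difference past the limit can still lie within the software's error. Neither error covers the spread between animals. Of the hepatocyte markers, which the labelled tissue should show, all 15 were measured on every array.

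Of the 69 genes, 42 were measured on all 3 arrays, 6 on 1 or 2 arrays and 21 on none. The 21 were 9 claudins (Cldn6, Cldn10, Cldn11, Cldn13, Cldn16, Cldn17, Cldn19, Cldn22 and Cldn24), 10 connexins (among them Gja3, Gja6, Gjb5, Gjb6, Gjd2, Gjd3 and Gjd4), Pard3b and Llgl1. Thus 10 of 23 claudins and 8 of 19 connexins were measured throughout. All 5 plaque proteins were, and all 5 genes grouped as other junction membrane proteins (Marveld1 included by its symbol). The same held for 6 of 8 Par genes (Mark2, also known as Par1b, included), 3 of 3 Crumbs genes, 3 of 4 Scribble genes and both angiomotins.

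Between the active mutants 7 of the 42 genes were at least 1.5-fold apart (16.7%, where 11.6% of all genes were). Cgn, Gja5, Cldn5, Ocln and Cldn1 were higher in 2SA than in 1SA, and Cldn14 and Marveld1 were lower. The upstream sequences of the 5 higher genes are shown because they are the members that were higher together in this comparison. The sequences are the 250 bases before the start site in RefSeq (build GRCm38.p6), 5′ to 3′ on the gene's strand. They cover chr3:94786483-94786732 (minus strand) for Cgn, chr3:97032152-97032401 (plus strand) for Gja5, chr16:18776597-18776846 (plus strand) for Cldn5, chr13:100552719-100552968 (minus strand) for Ocln, whose outermost of 2 starts was used, and chr16:26371840-26372089 (minus strand) for Cldn1. Capitals mark the grainyhead-type motif described after the sequences.
Cgn: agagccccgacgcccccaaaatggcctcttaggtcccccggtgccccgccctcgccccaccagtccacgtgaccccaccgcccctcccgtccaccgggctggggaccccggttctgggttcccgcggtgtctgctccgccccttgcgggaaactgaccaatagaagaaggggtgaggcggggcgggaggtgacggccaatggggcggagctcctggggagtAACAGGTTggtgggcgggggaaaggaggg
Gja5: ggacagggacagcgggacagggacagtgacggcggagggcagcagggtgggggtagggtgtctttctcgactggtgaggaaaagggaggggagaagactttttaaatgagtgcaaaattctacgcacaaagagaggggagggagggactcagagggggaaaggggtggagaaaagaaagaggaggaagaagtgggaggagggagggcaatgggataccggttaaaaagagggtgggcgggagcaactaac
Cldn5: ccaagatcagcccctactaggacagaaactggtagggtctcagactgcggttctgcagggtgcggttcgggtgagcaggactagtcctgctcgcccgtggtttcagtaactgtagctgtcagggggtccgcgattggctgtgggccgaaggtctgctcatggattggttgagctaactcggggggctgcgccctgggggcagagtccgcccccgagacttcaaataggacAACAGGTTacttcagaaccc
Ocln: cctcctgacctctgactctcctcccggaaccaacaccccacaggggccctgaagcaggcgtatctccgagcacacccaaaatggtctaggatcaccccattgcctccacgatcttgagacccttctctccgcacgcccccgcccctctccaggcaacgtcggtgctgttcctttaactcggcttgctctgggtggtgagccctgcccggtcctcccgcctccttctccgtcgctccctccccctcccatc
Cldn1: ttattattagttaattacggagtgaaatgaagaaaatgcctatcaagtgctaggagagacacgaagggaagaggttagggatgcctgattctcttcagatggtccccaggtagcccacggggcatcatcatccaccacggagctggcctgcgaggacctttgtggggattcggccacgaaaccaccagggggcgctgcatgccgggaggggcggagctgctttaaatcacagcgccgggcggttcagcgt

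3 motifs were searched on both strands. They were GGAATG, the core bound by the TEAD factors through which YAP acts, AACCNGTT, the motif of grainyhead-like factors of epithelia, and CAGGTG, an E-box bound by Snail-type repressors of epithelial genes. The promoters of Cgn and Cldn5 each held AACAGGTT, a match to AACCNGTT on the other strand, with its first base 29 bases before the start in Cgn and 20 in Cldn5. No motif of the 3 was found in the windows of Gja5, Ocln and Cldn1 printed above. Over the family, 78 promoters of 52 members were listed. AACCNGTT was in 3 of them (3.85%; Cgn, Cldn5 and Gjb6) and in 1.79% of all 32851 promoters. GGAATG was in 8 (10.3%; Cldn2, Cldn7, Cldn15, Cldn16, Crb3, Gjb1, Marveld1 and Prkci) against 12.6% of all, and CAGGTG in 20 (25.6%) against 17.2% of all, among them the other start of Ocln. A match is a description of letters and not a binding site.

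The family's 2-fold counts were near those of all genes. In 1SA against WT, 0 of 42 were at least 2-fold apart, where 1.86% of all genes were. In 2SA against WT, 1 of 42 was, against 1.67% of all genes, and in 2SA against 1SA 1 of 42, against 3.6% of all genes. The gene was Cgn in both. At 1.5-fold, 2 members were lower and 0 higher in 1SA than in WT, which is 4.76% of members where all genes gave 7.75%. In 2SA against WT 2 were higher and 2 lower, or 9.52% against 6.8%. The comparison of the mutants gave 5 higher and 2 lower in 2SA, or 16.7% against 11.6%. The 3 comparisons share arrays and are not independent of each other.

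The median difference over the 42 genes was -0.03 in 1SA against WT, 0.05 in 2SA against WT and 0.07 in 2SA against 1SA, where all genes gave -0.0017, -0.03 and -0.03. Members above 0 numbered 18 in the first comparison and 26 in each of the others (42.9% and 61.9%), against 49.7%, 43.6% and 45.6% of all genes. The SD over the members, 0.26, 0.33 and 0.40, was near that of all genes, 0.34, 0.33 and 0.42.

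**Figure D1:**
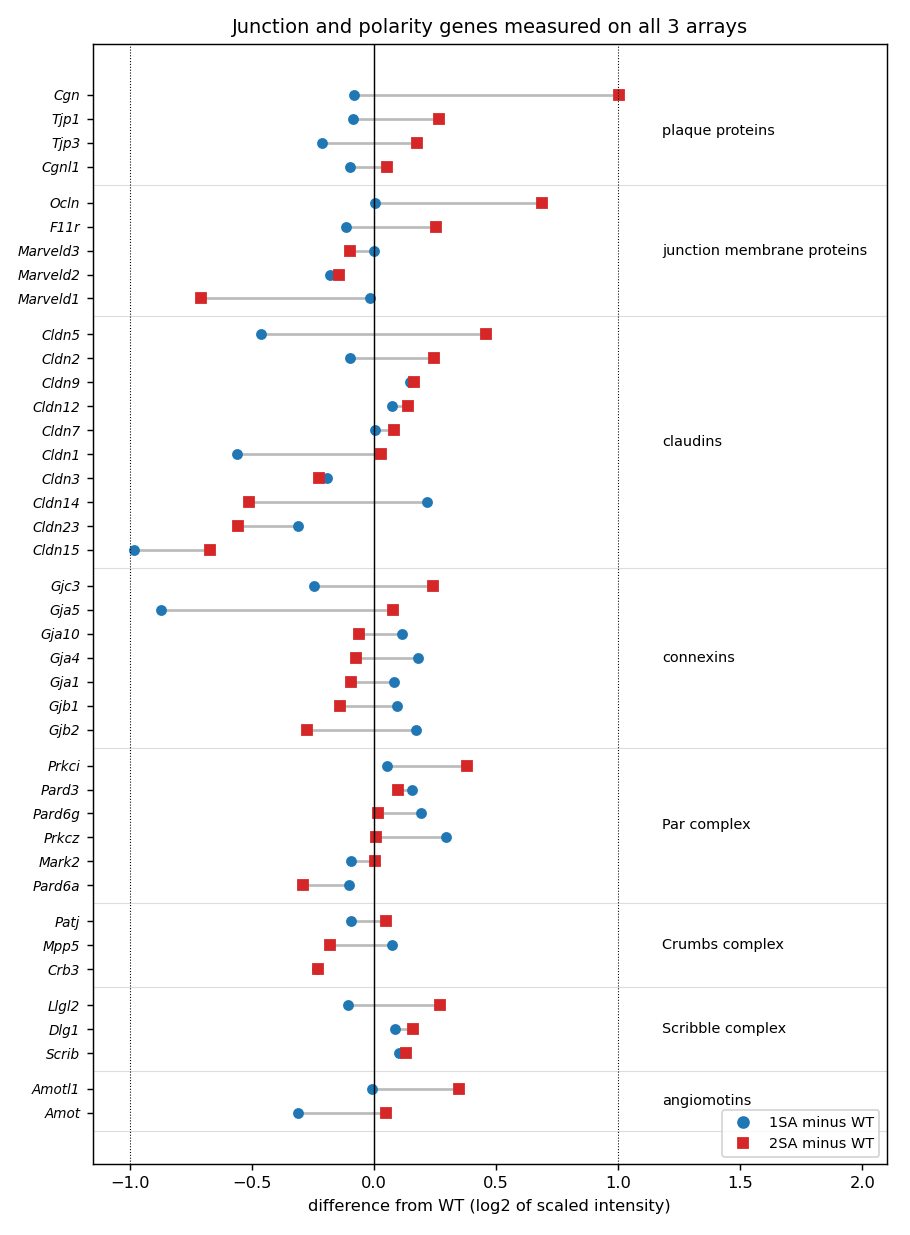
Log2 difference from the WT array, after scaling to the 75th percentile, for 40 of the 42 genes measured on all 3 arrays, grouped by role, with 1 array per group. Blue circles are 1SA minus WT, red squares are 2SA minus WT, grey lines join both values of a gene, and dotted lines mark a 2-fold difference. Cgn reached 2-fold in 2SA, Cldn15 lay nearest to 2-fold lower in 1SA, and the plaque proteins drawn had all their circles left and all their squares right of 0.

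In the plaque proteins all 5 genes lay above WT in 2SA and below WT in 1SA. Cingulin (Cgn), which links the tight junction to myosin and to regulators of small GTPases, had intensities of 1769 in WT, 1584 in 1SA and 3898 in 2SA. It was high on the 2SA array alone. The difference was 1.00 against WT (2.01-fold) and 1.09 against 1SA (2.12-fold), while 1SA differed from WT by -0.08. With another background correction (normexp) the value against WT was 0.96, just under 2-fold. Normexp adds an offset to every intensity, which by arithmetic makes log2 differences smaller, most of all for dim probes. The related gene Cgnl1 (paracingulin) had intensities of 32.0, 28.4 and 36.5, with 2SA differing from WT by 0.05 and from 1SA by 0.15.

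The zonula occludens scaffolds, which bind claudins and occludin through PDZ and other domains, had the same order of arrays as cingulin. Tjp1 (ZO-1) gave 987 in WT, 883 in 1SA and 1305 in 2SA, a difference of 0.27 between 2SA and WT. Tjp3 (ZO-3) gave 2234, 1831 and 2773, with 0.18 between 2SA and WT and -0.21 between 1SA and WT. All 5 plaque genes were above 0 in 2SA against WT (median 0.27) and in 2SA against 1SA (median 0.39), and all 5 below 0 in 1SA against WT (median -0.08). Past the limit of 0.21 were 3 of them against WT and 4 against 1SA. Over all genes 43.6% were above 0 in 2SA against WT. With normexp, 4 of 5 were above 0 in 2SA against either array, with Cgnl1, which is dim, the exception.

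In the group formed of other junction membrane proteins, occludin (Ocln) and Marveld1 lay apart in opposite directions. Marveld1 is in this group by its symbol, and a place in the junction is not shown by these data. Occludin, the tetraspan protein that shapes the strand network, had 191 in WT, 182 in 1SA and 337 in 2SA. It was 1.61-fold higher in 2SA than in WT (0.69), and 1SA differed from WT by 0.0052. With normexp its 2SA value was 0.55 against WT and 0.56 against 1SA, below 1.5-fold in both. A second Ocln probe, with 46.1, 37.5 and 72.2, gave 0.51 between 2SA and WT and -0.22 between 1SA and WT. Both probes were highest on the 2SA array. Marveld1, a tetraspan protein of the same MARVEL family, had 701, 657 and 472. It was lowest on the 2SA array, 1.63-fold lower than in WT (-0.71), and 1SA differed from WT by -0.02. With normexp its 2SA value was -0.51 against WT and -0.58 against 1SA, again short of 1.5-fold.

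F11r (JAM-A), the immunoglobulin-type adhesion molecule that recruits Par3 to the junction, gave 6251 in WT, 5485 in 1SA and 8198 in 2SA. It differed by 0.26 between 2SA and WT and by -0.11 between 1SA and WT. Marveld2 (tricellulin), which sits at the corners between cells, gave 367, 308 and 366, so that 1SA (-0.18) and 2SA (-0.14) both lay within the spot limit of WT. For Marveld3 the brighter probe gave 38.3, 36.3 and 39.4 and differed from WT by -0.10 in 2SA. A second Marveld3 probe, on another transcript entry, was not well above background on the 1SA array (9.58), at least 1.74-fold lower than its 18.8 in WT. On the 2SA array, with 23.2, it was at least 1.95-fold higher than in 1SA.

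**Figure D2:**
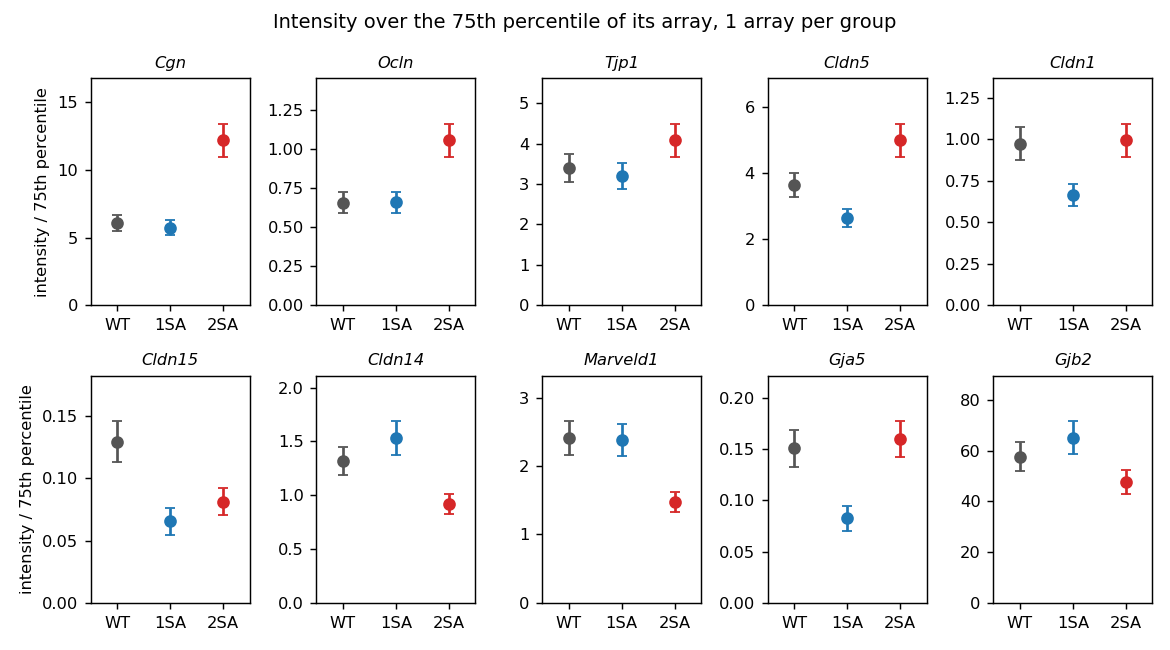
Intensity divided by the 75th percentile of its array for 10 family members on the WT, 1SA and 2SA arrays. Each panel has its own linear axis from 0. Points are single arrays and bars are the error the scanner software gives for that intensity, which covers the measurement and not the animals. Cgn, Ocln, Tjp1 and Cldn5 were highest in 2SA, Marveld1 and Cldn14 lowest in 2SA, and Cldn1, Cldn15 and Gja5 lowest in 1SA.

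Claudins decide which ions and solutes pass between cells, and the 10 measured ones did not move as a block. Their medians were -0.15 in 1SA against WT, 0.06 in 2SA against WT and 0.07 in 2SA against 1SA, with 4, 6 and 7 of 10 above 0. 3 of the 10 were at least 1.5-fold apart between 2SA and 1SA (Cldn5, Cldn1 and Cldn14), where 11.6% of all genes were.

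Cldn5, the claudin known from endothelial tight junctions, had 1052 in WT, 725 in 1SA and 1592 in 2SA. The mutants lay on either side of WT, by -0.46 for 1SA and 0.46 for 2SA, and 2SA was 1.89-fold above 1SA (0.92). Cldn1, a sealing claudin of hepatocytes and bile ducts, had 283, 182 and 317. It was low on the 1SA array alone, by -0.56 against WT, while 2SA differed from WT by 0.03 and from 1SA by 0.59. With normexp the latter was 0.47, below 1.5-fold. Cldn14 had 383, 422 and 295. Its order was the reverse of that of Cldn5, with 0.22 for 1SA and -0.51 for 2SA against WT, and 2SA was 1.66-fold below 1SA (-0.73).

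Cldn2, which forms a channel for cations and water and lies mainly in pericentral hepatocytes of mouse liver, had 1176 in WT, 1043 in 1SA and 1533 in 2SA. Its difference between 2SA and WT was 0.25, and a second Cldn2 probe gave 0.34. For 1SA against WT both probes were within the spot limit, at -0.10 and -0.0044. Cldn3, a sealing claudin present across the liver lobule, had 8059, 6681 and 7578 and lay below WT in both mutants (-0.19 and -0.22). Cldn12 had 4575, 4563 and 5544, and neither mutant differed from WT by more than the spot limit (0.07 and 0.14). The same held for Cldn7 (0.0055 and 0.08) and for the dim Cldn9 (0.15 and 0.17).

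The dim claudins are less certain. Cldn15 had 37.6 in WT, 18.1 in 1SA and 26.0 in 2SA. It was 1.97-fold lower in 1SA (-0.98) and 1.59-fold lower in 2SA (-0.67) than in WT, but normexp reduced these to -0.27 and -0.31 and turned 2SA against 1SA from 0.31 to -0.04. Cldn23 had 30.3, 23.1 and 22.6, which gave -0.31 and -0.56 against WT. Cldn18 was well above background on the WT array only, with 30.3 against 6.66 in 1SA and 2.78 in 2SA. Against WT the bounds came out at 2.80-fold lower for 1SA and 5.61-fold lower for 2SA. They rest on the lowest measured signal of each mutant's array, which was -4.75 in 1SA and -5.75 in 2SA (scaled log2). Probes brighter than that failed the background rule on either array, so neither fold is a firm minimum. Cldn4 had 12.2, 12.4 and 23.5, was not well above background in WT and was at least 1.71-fold higher in 2SA than there. The other Cldn4 probe was measured on no array. Cldn20, not measured in WT, was at least 1.48-fold higher in 1SA than in WT, and Cldn8 was measured on the 2SA array only, at 13.6.

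By sign alone, most connexins lay the other way from the plaque proteins. Of the 8 measured, 6 were above 0 in 1SA against WT (median 0.10), 6 below 0 in 2SA against WT (median -0.08) and 6 below 0 in 2SA against 1SA (median -0.21). Past the spot limit of 0.21, 0 connexins were above and 2 below (Gja5 and Gjc3) in 1SA against WT. In 2SA against WT 1 was above (Gjc3) and 1 below, and in 2SA against 1SA 2 were above (Gja5 and Gjc3) and 4 below. Gja5 and Gjc3 are dim, and the limit does not hold for them. In 2SA against 1SA, 45.6% of all genes were above 0. Hepatocyte gap junctions consist of Cx32 (Gjb1) and Cx26 (Gjb2). Gjb1 had 63937 in WT, 64656 in 1SA and 63739.7 in 2SA, with differences from WT of 0.09 and -0.14. Gjb2 had 16751, 17923 and 15206, with 0.17 for 1SA, -0.28 for 2SA and -0.45 between the mutants. Both were highest in 1SA and lowest in 2SA on the scaled values. Under quantile normalisation 2SA against 1SA was -0.08 for Gjb1 and -0.32 for Gjb2, in place of -0.23 and -0.45. Gjb1 in 1SA against WT was then -0.0070 in place of 0.09, so WT and not 1SA was highest. Both Gjb1 differences from WT lay within the spot limit.

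Beside these values, the 15 hepatocyte markers had a median of 0.13 in 1SA against WT and -0.13 in 2SA against WT, with 13 of 15 lower in 2SA than in 1SA (median -0.27). Their summed scaled intensity was 6013 in WT, 6461 in 1SA and 5349 in 2SA, and none was unmeasured. In whole liver, fewer cells of a type and less RNA per cell cannot be told apart. The part of the hepatocyte markers in the connexin values was not tested.

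The vascular connexins did not share a pattern. Gja5 (Cx40), a connexin of arterial endothelium, had 43.9 in WT, 22.7 in 1SA and 51.0 in 2SA, so that it was low on the 1SA array alone, by -0.87 against WT, and 1.93-fold higher in 2SA than in 1SA. With normexp these values were -0.32 and 0.27, and 2SA against WT turned from 0.08 to -0.05. Its other probe was measured on no array. Gja4 (Cx37), which pairs with Cx40 in endothelium, had 285, 307 and 298 and differed from WT by 0.18 and -0.07. Gja1 (Cx43), the most widespread connexin, had 18.4, 18.5 and 19.0. Its 10 spots per array had SDs of 0.34, 0.51 and 0.21 on the log2 scale, wider than its differences from WT of 0.08 and -0.09.

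Of the dim connexins, Gja10 differed from WT by 0.11 and -0.06. Gjc3, with 16.9 in WT, 13.5 in 1SA and 22.0 in 2SA, lay at -0.25 in 1SA and 0.24 in 2SA, inside the error of dim probes, and with normexp both lay above WT, at 0.07 and 0.095. Gjc1 (Cx45) had 19.0 and 17.9 in WT and 1SA and was not well above background in 2SA (10.08). By that dim value it was 2.07-fold lower than in WT and 2.06-fold lower than in 1SA. These are plain differences between dim values and not minimum folds.

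Other cell types also contribute RNA for several of these genes. The 18 endothelial markers, relevant to Cldn5, Gja4 and Gja5, were all measured, and their median was -0.13 in 1SA against WT, -0.11 in 2SA against WT and 0.05 in 2SA against 1SA, with 10 of 18 above 0 in the last. The range in the last ran from -0.71 (Clec4g) to 0.77 (Emcn), and the summed scaled level was 111 in WT, 113 in 1SA and 95.1 in 2SA. Bile duct markers, relevant to the claudins and cingulin, were measured for 12 of 15 (Muc1 and Ggt1 were among those not measured). Their median was -0.37 in 1SA against WT, -0.01 in 2SA against WT and 0.61 in 2SA against 1SA, with 10 of 12 above 0 in the last. That last range ran from -1.56 (Onecut1) to 1.48 (Bicc1), and the summed level was 42.3, 35.5 and 45.7. The brightest duct marker, Slc4a2 (6814, 7321 and 8541), weighs most in that sum and lay at 0.18 in 1SA against WT. In 1SA against WT 9 of the 12 duct markers were below 0 and 3 above, from -1.73 (Spp1) to 0.43 (Cftr). The part of the duct and endothelial markers in the junction gene values was not tested. Of the other lists, the stellate markers had medians of -0.14 and -0.49 against WT (summed level 74.2, 62.0 and 51.9) and the Kupffer cell markers -0.42 and -0.17 (312, 233 and 212). Cell cycle markers had 0.69 and 0.79, and blood cell markers 0.16 and 0.29.

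By its brightest probe, no polarity gene measured on all 3 arrays was 1.5-fold apart in any comparison. A dimmer Patj probe was (0.61 in 1SA and 0.60 in 2SA against WT). It had 22.2 in WT, 32.2 in 1SA and 37.0 in 2SA, all under 50, where the spot limit does not hold. In the Par complex, which marks the apical border, the scaffold Pard3 had 1229.6 in WT, 1300.3 in 1SA and 1447 in 2SA, with differences from WT of 0.16 and 0.10. Its 4 probes ranged from 0.02 to 0.24 in 1SA and from 0.08 to 0.29 in 2SA. Both atypical protein kinases C of the complex differed in which mutant was high. Prkci had 1456, 1434 and 2082 and was high in 2SA, by 0.38 against WT and 0.05 for 1SA. Prkcz had 569, 663 and 628 and was high in 1SA, by 0.30 against WT and 0.0075 for 2SA. All 3 measured Prkcz probes showed this order, with 0.30 to 0.53 in 1SA and -0.07 to 0.0075 in 2SA.

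The adaptor Pard6a had 181 in WT, 159.6 in 1SA and 163 in 2SA, -0.29 in 2SA against WT. For Pard6g the values against WT were 0.19 and 0.02. Pard6b, with 16.6, 10.9 and 17.7, was not well above background on the 1SA array. By its dim value there it was 1.44-fold lower than in WT, a plain difference and not a minimum fold. Mark2, a kinase of the lateral domain that helps hepatocytes form canaliculi, had 146, 129.8 and 161, with -0.09 and 0.0047 against WT. The medians of the 6 Par genes were 0.11 in 1SA and 0.01 in 2SA against WT.

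In the Crumbs complex, the transmembrane protein Crb3 had 187 in WT, 150.5 in 1SA and 175 in 2SA and was a little below WT in both mutants (-0.23 in 1SA and -0.23 in 2SA). Its second probe gave -0.19 and -0.0008. The scaffold Mpp5 (Pals1) had 230.3, 229.9 and 224, within the spot limit of WT in 1SA (0.07) and 2SA (-0.18). Patj, which links Pals1 to the zonula occludens proteins, had 327, 289.9 and 372 for its brightest probe, with -0.10 and 0.05 against WT. Its 4 measured probes disagreed, from -0.10 to 0.61 in 1SA and from 0.05 to 0.60 in 2SA, and their mean was 0.26 and 0.34. The highest value in each mutant came from the dim probe under 50. The level of Patj relative to WT therefore depends on the probe.

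The Scribble complex, which keeps the apical domain from spreading, was at or above WT in 2SA. Scrib had 1813 in WT, 1846 in 1SA and 2183 in 2SA, with 0.10 and 0.13 against WT. Dlg1 had 239, 240.4 and 294, with 0.09 and 0.16. Llgl2, the lethal giant larvae homologue of epithelia, had 1346, 1187 and 1785, with -0.10 in 1SA and 0.27 in 2SA, and its second probe gave -0.03 and 0.40. Of the 3 genes, only Llgl2 passed the spot limit.

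Angiomotins hold YAP at tight junctions and on actin. Amot had 976 in WT, 746 in 1SA and 1111 in 2SA, so that it was lower in 1SA by -0.31 and differed by 0.05 in 2SA. Amotl1 had 17.0, 16.0 and 23.8, with -0.0091 and 0.35, and with normexp the latter was 0.02. Their relative Amotl2, a known transcriptional target of YAP that belongs to the wider list described next, had 647, 685 and 1559, with 0.16 in 1SA and 1.13 in 2SA.

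**Figure D3:**
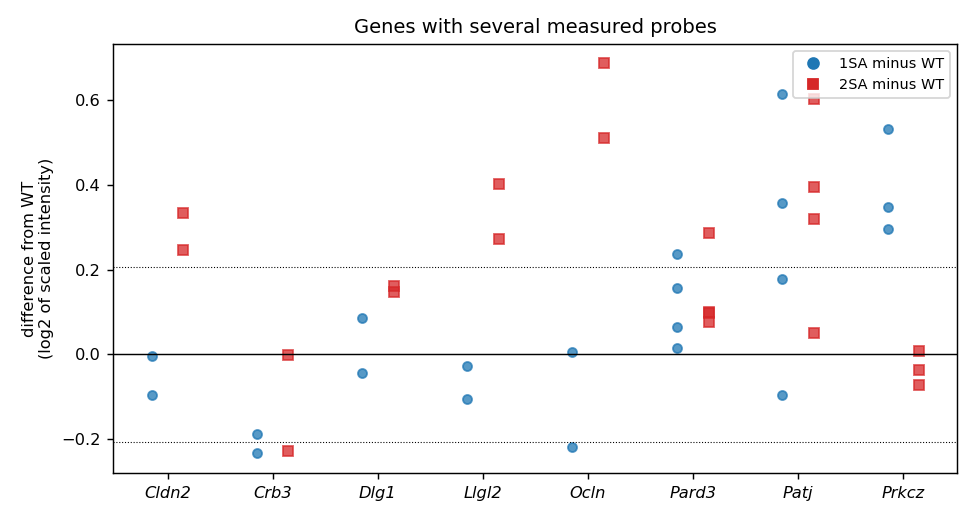
Log2 difference from WT of every probe measured on all 3 arrays, for 8 of the 9 genes with more than 1 such probe. Blue circles are 1SA minus WT, red squares are 2SA minus WT, and dotted lines mark the limit of 0.21 from repeated spots. Both Ocln, Cldn2 and Llgl2 probes lay above the limit in 2SA, the 3 Prkcz probes above it in 1SA, and the 4 Patj probes were spread from near 0 to 0.61.

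Neighbouring gene groups were set beside the family. Of 29 other tight junction genes, 24 were measured and 0 were 2-fold apart in any comparison, with medians of -0.06 in 1SA against WT, 0.07 in 2SA against WT and 0.17 in 2SA against 1SA. The 28 of 36 other polarity genes that were measured had medians of -0.01, -0.01 and 0.06. 2 of them were 2-fold apart, Amotl2, given above, and Mark1, a microtubule affinity regulating kinase, with 34.9, 30.1 and 16.7 (-0.14 and -1.19 against WT). Mark1 is dim, under 50 on all arrays, where the spot limit does not hold. Adherens junction genes, 19 of 21 measured, had -0.07, 0.05 and 0.12, and desmosome genes, 9 of 14 measured, had -0.09, -0.05 and 0.03, with 0 genes 2-fold apart in either. The 4 of 8 pannexins and connexin partners that were measured had -0.31, -0.03 and 0.22, also with 0 genes 2-fold apart.

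Canalicular membrane genes, the transporters and cytoskeletal linkers on the apical side that tight junctions enclose, were measured for 23 of 26, with medians of -0.13, -0.04 and 0.13. The gene 2-fold apart was Myo5a, an actin motor for vesicles, with 42.1 in WT, 21.8 in 1SA and 66.7 in 2SA (-0.87 and 0.53 against WT, 1.40 between the mutants). Myo5a was under 50 in WT and 1SA, where the spot limit does not hold. The plaque proteins, at 0.39, had a higher median in 2SA against 1SA than these lists, whose medians in that comparison were 0.03 to 0.22. The bile duct markers had a higher median still, 0.61, and the 2 angiomotins were close, at 0.36. No test of these differences was possible with 1 array per group.

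**Figure D4:**
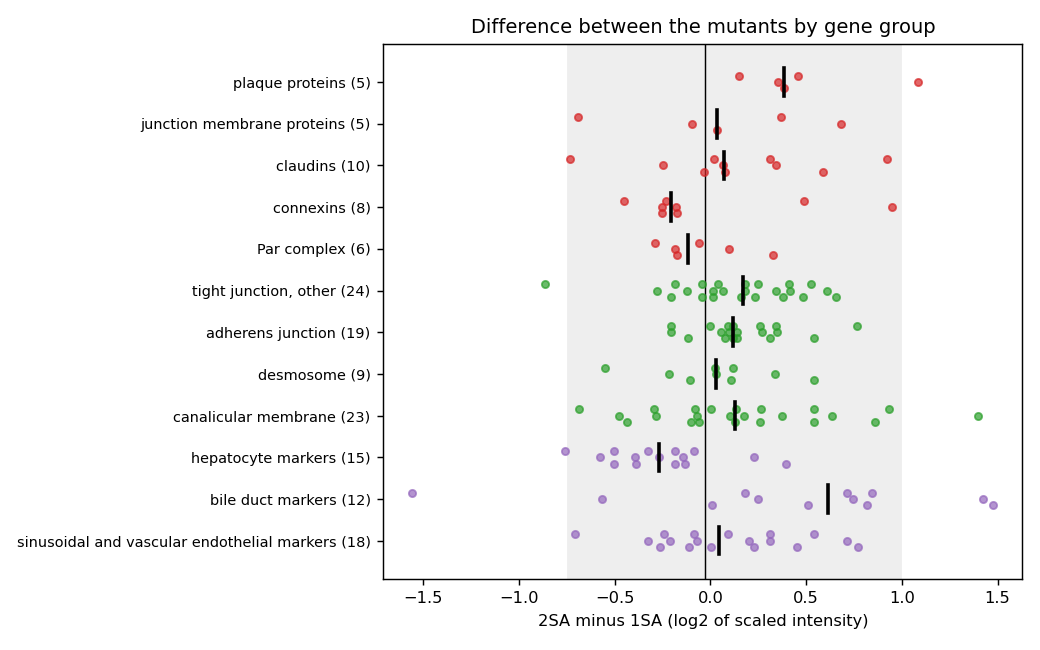
Log2 difference between the 2SA and 1SA arrays for each measured gene, by group, with the number of genes in brackets. Red points are junction and polarity genes, green points are neighbouring gene lists and purple points are cell type markers. Black ticks are group medians, the vertical line is the median of all genes (-0.03), and the grey band holds the central 95% of all genes, from -0.74 to 1.00. The plaque proteins lie right of the line (median 0.39), most connexins left of it (median -0.21), and Cgn lies past the right edge of the band.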

How the data were processed

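Total RNA from mouse liver of the 3 groups, 1 array each, was labelled with Cy3 and hybridised to Agilent SurePrint G3 mouse arrays. The authors read the scans with Feature Extraction (10.10.1.1 in the file headers). What they deposited per spot is an intensity on a linear scale, background-subtracted and detrended by that software and comparable between arrays only after scaling. Values in the authors' series matrix equal these times an array-wide factor (3.02, 3.08 and 2.81), whose origin is not given in the sources used here, and its columns had medians of 61.8, 58.4 and 62.3. All 3 arrays lay on 1 slide, so slide could not be a block.

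Of 59305 non-control spots per array, for 55681 probes, outlier spots were left out (181, 148 and 182), and 0 were saturated. Each probe's value is its mean log2 intensity over spots minus log2 of the 75th percentile on that array. Probes were named through their RefSeq accessions in a GRCm38.p6 gene table, used for names only because the arrays were designed on mm9; 26762 probes matched. The brightest probe measured on all 3 arrays stood for a gene. A probe not well above background on 1 array gave a bound, its bright value over the higher of that array's lowest measured signal and its own. That lowest signal differed by array, and brighter probes could fail the background rule. Where the probe's own value was the higher, the bound is the plain difference. Genes are named where at least 1.5-fold apart, with a bound of at least 2-fold, or as fixed liver junction genes; genes of other lists where at least 2-fold apart. The other members were given more briefly, and a few are counted in their groups but not reported by name here. The members and lists were chosen with earlier results of these data known. The computation of differences and counts was tested on simulated arrays with known changes. Promoters were taken from RefSeq (GRCm38.p6).

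Alternatives were quantile normalisation, the array median, normexp (offset 50, on median signals, since a mean was not used here), the series matrix, no filter and a stricter filter on dim probes, leaving out saturated spots, the mean of a gene's probes and a 3-fold threshold. Python 3.11.15, pandas 2.3.3, numpy 2.4.6, R 4.3.3, limma 3.58.1 and matplotlib 3.10.9 were used. The number of arrays limits the precision.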

Additional observations from a re-analysis of the deposited data

Results flagged for a closer look

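In 3 genes the mutants lay on opposite sides of WT, each by more than the 0.21 from repeated spots. That limit does not include the scanner software's error, which is larger. Cldn14 in 1SA against WT was just past the limit, at 0.22. With 1 array per group these differences were not tested. Between 2SA and 1SA, Cldn5 differed by 0.92 and Cldn14 by -0.73. Gjc3 differed by 0.49, at intensities of 13.5 to 22.0, where the SD of a difference between spots was 0.27 to 0.32 and the limit of 0.21 does not hold. With normexp both mutants lay above WT for Gjc3, at 0.07 and 0.095, so the opposite sides were lost. The part of endothelial markers in the value of Cldn5 was not tested. Their median in the same comparison was 0.05, with a range from -0.71 (Clec4g) to 0.77 (Emcn). Of these 18 markers 10 were above 0 and 8 below, so the list did not move as 1 group.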

How the results depend on the processing

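The medians over the junction and polarity genes stayed within 0.10 of the reported values under the alternatives run. The one in 2SA against WT, near 0, turned to -0.0027 with normexp. Scaling to the array median adds 1 constant to every gene, which took the median in 1SA against WT to 0.0063 and that of all genes from -0.0017 to 0.03. The group medians of plaque proteins and connexins kept their signs under each of them. The counts moved. At 2-fold, dropping the filter on dim probes gave 4 genes in 1SA against WT, 6 in 2SA against WT and 6 in 2SA against 1SA, normexp gave 0 in 2SA against WT, and a 3-fold threshold gave 0 in 2SA against WT and 0 in 2SA against 1SA. At 1.5-fold, alternatives chosen after seeing the data gave, for 1SA against WT, 2SA against WT and 2SA against 1SA in turn, 9, 12 and 14 genes with no filter and 0, 1 and 3 with normexp. The stricter filter, which kept 24 of the 42 genes, gave 0 and 2 for the mutants 1SA and 2SA against WT. The 93 differences counted were those of members at least 1.5-fold apart or fixed as liver junction genes. Of these, 18 moved by over 0.10 with normexp, 5 with the mean of probes and 2 with quantile normalisation. Other members, among them the dim Gjc3, Cldn23, Cldn9, Cgnl1 and Gja10, are outside that count. With normexp Gjc3 in 2SA against 1SA went from 0.49 to 0.02. In 2SA against WT, Cldn23 went from -0.56 to -0.27 and the brighter Cldn7 from 0.08 to 0.05. The series matrix must return the same values after scaling, and the array median shifts all genes alike, so neither is a check on these differences. Of 18 medians of the other lists, 4 moved with no filter, 2 with normexp and 2 with the stricter filter. No spot was saturated, so leaving saturated spots out changed no value. Normexp adds an offset to every intensity, which by arithmetic makes log2 differences smaller, most of all for dim probes. A smaller difference with normexp is therefore not an independent check on dim probes. The part of the offset in each change was not tested, and neither was the cause of the other changes. No paired analysis was possible because there was a single array in each group.

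Signal over background limits the dim genes, and no setting replaces the missing replicates.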
